A study of Mus musculus with 9 samples.

Results

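The annexin family was followed in gut organoids from APCmin/+ mice, before and after treatment with the NSAID sulindac. Its members were the rows of the count table with the symbols Anxa1, Anxa2, Anxa3, Anxa4, Anxa5, Anxa6, Anxa7, Anxa10, Anxa11 and Anxa13, and all 10 were found among the 23955 rows. Annexins are cytosolic proteins that bind membranes rich in acidic phospholipids when calcium rises, through a core of repeated helical domains, and they are known for work in vesicle traffic, in the link between membrane and actin, and in the repair of torn membranes. Several of them act together with small calcium-binding S100 proteins. In the gut, Anxa2 and Anxa4 are abundant in epithelial cells, and Anxa13 is a family member typical of the intestine that is anchored to membranes by a fatty acid.

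RNA-seq was performed on 9 organoid samples in 3 groups of 3. All came from APCmin/+ mice, which carry 1 truncated copy of Apc, the gene whose loss starts intestinal adenomas. MIN organoids were grown from gut epithelium of normal appearance next to the tumors, so that they are no wild-type control, adenoma organoids from adenomatous polyps, and sulindac organoids from adenomatous polyps treated with sulindac, a cyclooxygenase inhibitor. The medium held R-spondin1, Noggin, EGF, bFGF and B27 in every group, and the dose and duration of sulindac in the organoids and the age and sex of the mice are not given in the sources used here. The labels speak of biological replicates without saying whether they came from separate mice, so p-values measure only the spread between these samples.

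The samples held 30881206 to 48412477 counts, and the 10 members took 0.275% to 0.400% of them. The unit of the levels is CPM, counts scaled to a library total of 1000000 after TMM normalization, and 3 counts correspond to 0.0641 to 0.100 CPM. Differences are log2 fold changes from edgeR's quasi-likelihood test with their standard error (SE), and a gene is called higher or lower at a false discovery rate (FDR) of 1% over all genes tested. The organoids were epithelial, since Epcam, Cdh1, Krt8, Krt18, Krt19 and Vil1 were all detected in every sample, with a summed level of 3214 to 7794 CPM. Of 7 leukocyte markers, Ptprc had 0 to 8 counts and Cd3e 0 to 2 counts. Cd68 was not near 0, with 53 to 83 counts in MIN, 284 to 560 in adenoma and 93 to 117 in sulindac samples. From MIN to adenoma Cd68 rose past the threshold (2.79 on the log2 scale, adjusted p = 1.93e-04). With sulindac Cd68 fell past it (-1.78, adjusted p = 0.00193). Lyz2, the other leukocyte marker tested between MIN and adenoma, fell there (-5.07, adjusted p = 4.34e-04). Of 7 mesenchymal markers, Col1a2, Col3a1 and Dcn had 0 counts in all 9 samples. In the same list Pdgfrb had 143, 176 and 127 counts in the MIN samples and 1 or 0 in each of the others (called lower in adenoma, adjusted p = 4.53e-06), and Pdgfra had 5 to 8 counts in MIN, 25 to 39 in adenoma and 12 to 20 in sulindac samples (called higher in adenoma, adjusted p = 4.92e-04). Xist, the RNA of the inactive X chromosome, had 72597 to 103702 counts in the MIN samples and 11 to 59 in the others, while the Y-linked genes Ddx3y, Eif2s3y, Kdm5d and Uty had at most 15 counts anywhere, so the MIN samples differed from the others in Xist as well as in tissue of origin, and these cannot be told apart in a comparison with MIN. Among 12026 genes with a MIN mean of at least 1 CPM, MIN replicate 3 was at least 2-fold above the mean of the other MIN samples in 247 (2.05%). It was at least 2-fold below that mean in 133 (1.11%). No such count was made for the other samples.

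Levels were compared between genes per kilobase of the longest transcript. On this scale Anxa4 had the highest level of the family in all 3 groups. It stood at 573 CPM per kilobase ± 50.0 (SD, n = 3) in MIN, 778 ± 71.5 in adenoma and 438 ± 53.0 in sulindac organoids. Anxa2 came second in each group, and its samples did not overlap with those of Anxa4. The order below them differed between groups. In MIN organoids Anxa13 was the third at 250.4 CPM per kilobase ± 35.7 (SD, n = 3), overlapping with Anxa2 but not with Anxa11, the next in order, and Anxa6 was last at 3.94 ± 0.322. In adenoma organoids Anxa1 was the third at 143 CPM per kilobase ± 25.2 (SD, n = 3), overlapping with Anxa2, Anxa13 was the ninth at 27.0 ± 5.75 and Anxa10 was last. In sulindac organoids Anxa3 was the third at 177 CPM per kilobase ± 40.8 (SD, n = 3), overlapping with Anxa11, the next in order, which in turn overlapped with Anxa1. Neighbours in the middle of the order overlapped in MIN (Anxa3, Anxa7, Anxa1, Anxa5 and Anxa10) and in adenoma (Anxa11, Anxa3, Anxa5, Anxa6 and Anxa7), so their order there is not beyond the spread of the samples.

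**Figure D1:**
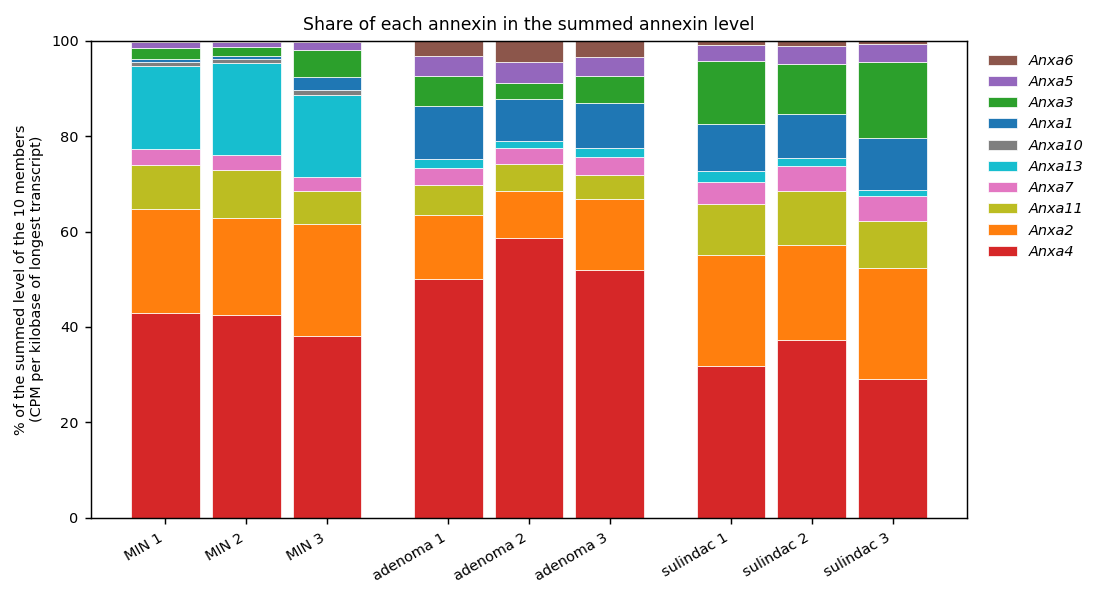
Each bar is 1 organoid sample, and its colored parts give the share (in percent, y-axis) of each annexin in the summed level of the 10 members, on the scale of CPM per kilobase of the longest transcript. Anxa13 takes 17.1% to 19.3% of the sum in MIN samples and 1.13% to 2.26% in the others, and Anxa4 is the widest part of every bar.

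The shares of the summed per-kilobase level show the same shift within each sample. Anxa4 made up 41.2% ± 2.74 of the annexin sum in MIN, 53.5% ± 4.51 in adenoma and 32.8% ± 4.21 in sulindac organoids (SD, n = 3 each). Anxa1 and Anxa3 were small parts in MIN, at 1.34% ± 1.19 and 3.33% ± 2.17. They stood at 9.75% ± 1.26 and 5.11% ± 1.53 in adenoma, and at 10.01% ± 0.847 and 13.2% ± 2.87 in sulindac organoids. The MIN values of both carried replicate 3, where Anxa1 had 2.71% and Anxa3 5.83% of the sum, against 0.662% and 2.28% in replicate 1.

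The first comparison asks how adenoma organoids differ from organoids of the adjacent gut. Between them 3 of the 10 annexins were called higher (Anxa1, Anxa5 and Anxa6) and 3 lower (Anxa10, Anxa11 and Anxa13), where 18.5% of the 13744 genes tested were called higher and 20.1% lower. The largest changes were those of Anxa6, 13.6-fold higher in adenoma, and of Anxa10 and Anxa13, which fell to a small part of their MIN level. Over both directions 38.7% of all genes tested were called. The median log2 fold change of the 10 members was 0.32 against -0.01 for all genes tested, and the median size of the change, without its sign, was 1.22 against 0.47.

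Anxa6, which has a doubled annexin core and is known for binding at endosomes and the plasma membrane, had 9.25, 10.7 and 9.45 CPM in MIN replicates 1 to 3 and 114, 145 and 142 CPM in adenoma. The adenoma samples all lay far above the MIN samples, and replicates of 1 group differed by at most 1.28-fold. The log2 fold change was 3.77 ± 0.14 (SE), with an adjusted p of 2.14e-07. Anxa5, the phosphatidylserine-binding annexin used as a stain for dying cells, had 24.6, 24.6 and 46.1 CPM in MIN and 102, 98.9 and 115 CPM in adenoma. Its groups were apart, with MIN replicate 3 nearest to the adenoma samples, and its log2 fold change was 1.73 ± 0.24 (adjusted p = 3.78e-04).

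Anxa1, an annexin induced by glucocorticoids and known as an inhibitor of inflammation, had 13.5, 14.5 and 74.1 CPM in MIN and 267, 190.2 and 259 CPM in adenoma. All adenoma samples were above all MIN samples, but MIN replicate 3 was 5.30-fold above the mean of the other MIN samples. The log2 fold change of Anxa1 was 2.82 ± 0.62 (adjusted p = 0.00498). Without MIN replicate 3 it was 4.09 and stayed past the threshold. The call was lost without MIN replicate 1 (log2 fold change 2.42, adjusted p = 0.0105) or 2 (2.45, 0.0133), without adenoma replicate 1 (2.73, 0.0411), 2 (2.96, 0.0259) or 3 (2.76, 0.0256), and with no filter on low counts (adjusted p = 0.0557).

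Anxa10, an annexin known from gastric epithelium, had 808, 751 and 1102 counts in the MIN samples and 4, 1 and 0 in the adenoma samples. Adenoma replicates 2 and 3 were under 3 counts, the limit of what this depth can show. The summed counts, 2661 in MIN and 5 in adenoma, give a level 453-fold higher in MIN when related to the normalized totals, with a 95% exact interval of 194 to 1395 that covers counting error only, and the adjusted p was 2.71e-06. Adenoma replicate 1 held 4 of the 5 counts, and without it the fitted log2 fold change, which depends on the prior count at such low levels, went from -8.76 to -10.29. Of 9 gastric epithelium markers 4 could be tested, and they did not share a direction. Gkn3 (96 to 183 counts in MIN against 3 to 6 in adenoma) and Cldn18 (15 to 19 against 1 to 2) were called lower. Tff2 (0 to 2 against 44 to 174) and Muc6 (1 to 9 against 14 to 177) were called higher. Among all genes tested 38.7% were called in either direction. The summed gastric list was at 3.62 to 5.17 CPM in MIN, 1.77 to 10.03 in adenoma and 0.267 to 0.826 in sulindac organoids. Most of the MIN sum was Gkn3 (2.62 to 3.91 CPM), and Anxa10 alone had a mean of 21.9 CPM in MIN. Gkn2, Muc5ac and Sox2 had 2 counts or fewer in each sample. Whether the organoids held gastric cells, and their part in the Anxa10 result, was not tested.

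Anxa13, the intestinal family member, had 253, 313 and 336 CPM in MIN and 33.8, 25.01 and 38.6 CPM in adenoma. The groups were far apart, and the log2 fold change was -3.21 ± 0.19 (adjusted p = 2.48e-06). All 9 enterocyte markers tested were called lower as well, where 20.1% of all genes tested were. Their summed level reached 2711 to 4528 CPM in the MIN and 7.46 to 8.57 CPM in the adenoma samples. In bulk organoids fewer cells of a type and less RNA per cell cannot be told apart. Within MIN, replicate 3 had the lowest enterocyte sum (2711 CPM, against 4163 and 4528) and the highest Anxa13 level. The markers were not lowered alike there. Apoa4 and Fabp1 were at 418 and 234 CPM, against means of 1194 and 740 CPM in replicates 1 and 2. Sis and Mep1a were close to that mean (1600 against 1605 and 22.6 against 23.8 CPM). The part of enterocytes in the Anxa13 result was not tested.

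Anxa11, which binds the EF-hand proteins S100a6 and Pdcd6, had 303, 366 and 305 CPM in MIN and 245, 200.2 and 231 CPM in adenoma. The groups did not overlap, but the difference was small, at -0.52 ± 0.13 on the log2 scale (adjusted p = 0.00801). In a fit blocked on the replicate number, which treats samples of the same number as pairs, the call was lost (adjusted p = 0.0206). It was also lost without any 1 of the 6 samples (log2 fold change -0.58 to -0.43, adjusted p 0.011 to 0.0394) and with library size alone as the normalization (adjusted p = 0.0271). In addition, 28.9% of the 50-base stretches of Anxa11 also lie in transcripts of 3 other genes, most of them (25.9%) in Gm2260, so its counts are uncertain to that extent.

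The other 4 members were not called between adenoma and MIN. Anxa2, which with S100a10 forms a complex under the plasma membrane, had 605, 627 and 878 CPM in MIN and 437, 295 and 561 CPM in adenoma. No adenoma sample reached the lowest MIN sample, and the log2 fold change was -0.70 ± 0.24 (adjusted p = 0.0381). In the fit blocked on the replicate number it was -0.73 and past the threshold (adjusted p = 0.00677), as it was with the DESeq2 Wald test (-0.72, adjusted p = 0.00759). Anxa4, a membrane-binding annexin of secretory and absorptive epithelia, had 1369, 1508 and 1632 CPM in MIN and 1873, 2004 and 2243 CPM in adenoma, without overlap, and stood at 0.44 ± 0.14 on the log2 scale (adjusted p = 0.0261). It passed the threshold with the DESeq2 Wald test (0.43, adjusted p = 0.00219) and with library size alone (0.57, adjusted p = 0.00303). For Anxa3 (0.62 ± 0.51, adjusted p = 0.337) and Anxa7 (0.19 ± 0.14, adjusted p = 0.267) the groups overlapped. Without MIN replicate 3, Anxa3 passed the threshold (log2 fold change 1.51, adjusted p = 0.00556). In all, 8 of the 10 members had no overlap between the MIN and adenoma samples, 4 of them higher and 4 lower, against 62.8% of all genes tested.

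**Figure D2:**
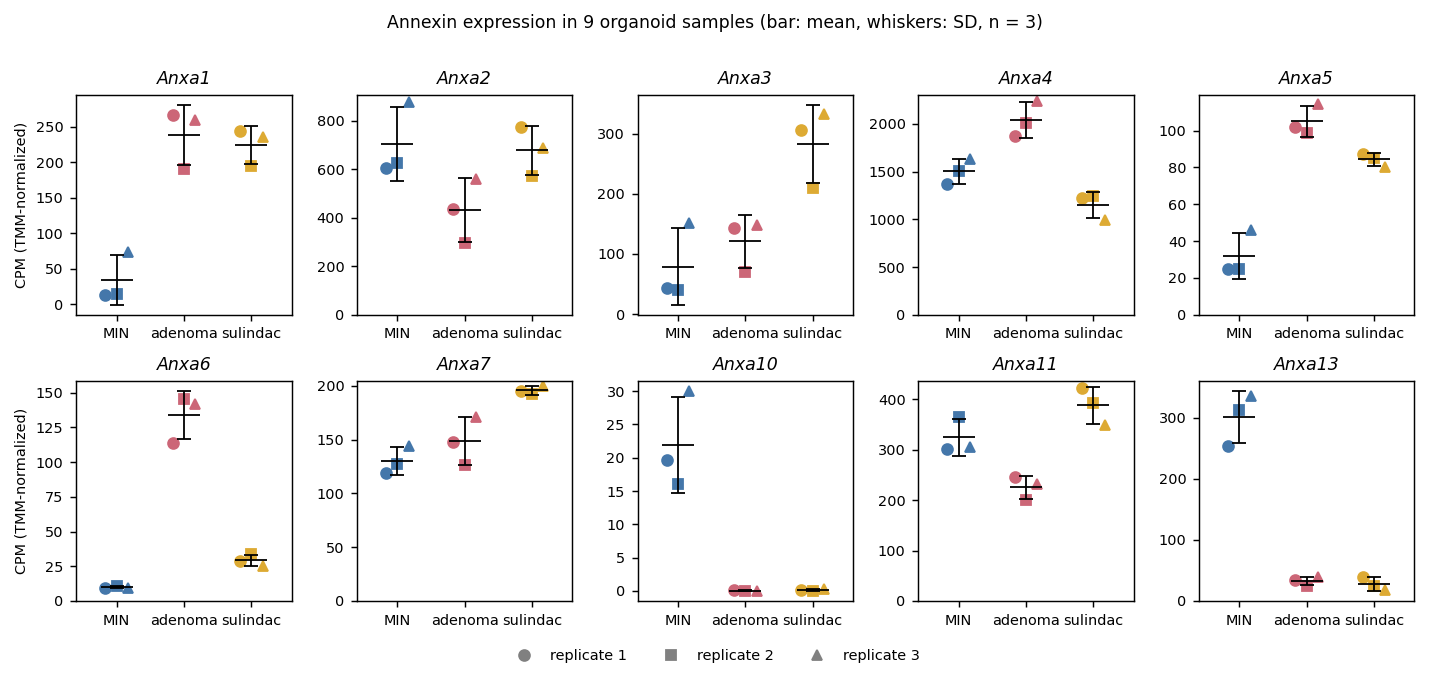
Each panel is 1 annexin, with CPM on the y-axis (linear, its own scale in each panel) and the groups on the x-axis; points are samples, shaped by replicate number, horizontal bars are means and whiskers SD (n = 3). Anxa6 rises in adenoma and is lower in sulindac organoids, Anxa10 and Anxa13 are low in both adenoma groups, and MIN replicate 3 lies above the other MIN samples for Anxa1, Anxa3 and Anxa5.

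Promoter sequences are given for the members called between adenoma and MIN that have an entry in the RefSeq-based promoter table (GRCm38.p6), so that genes that moved in opposite directions can be compared. The entries cover 7 of the 10 members, without Anxa3, Anxa6 and Anxa13. Each sequence is the 250 bases before the start site, 5′ to 3′ on the strand of the gene, and capitals mark matches to TATAAA (the TATA box) or TGANTCA (the AP-1 site). The windows are chr19:20390672-20390921 (minus strand) for Anxa1, chr3:36475888-36476137 (minus strand) for Anxa5, chr8:62123194-62123443 (minus strand) for Anxa10 and chr14:25841905-25842154 (plus strand) for Anxa11.
Anxa1: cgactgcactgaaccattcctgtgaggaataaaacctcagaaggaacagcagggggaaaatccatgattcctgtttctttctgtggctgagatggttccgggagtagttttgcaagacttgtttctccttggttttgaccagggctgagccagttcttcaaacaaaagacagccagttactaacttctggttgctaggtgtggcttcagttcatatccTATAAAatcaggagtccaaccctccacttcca
Anxa5: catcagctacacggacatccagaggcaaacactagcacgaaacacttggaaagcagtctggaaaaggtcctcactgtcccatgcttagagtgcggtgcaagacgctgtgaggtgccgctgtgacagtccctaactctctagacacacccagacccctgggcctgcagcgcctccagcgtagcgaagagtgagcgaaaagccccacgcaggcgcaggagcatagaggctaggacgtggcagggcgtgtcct
Anxa10: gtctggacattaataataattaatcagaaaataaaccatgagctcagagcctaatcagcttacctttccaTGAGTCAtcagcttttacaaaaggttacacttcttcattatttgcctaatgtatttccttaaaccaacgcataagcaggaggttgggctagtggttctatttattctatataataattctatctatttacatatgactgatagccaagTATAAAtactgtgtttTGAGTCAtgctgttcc
Anxa11: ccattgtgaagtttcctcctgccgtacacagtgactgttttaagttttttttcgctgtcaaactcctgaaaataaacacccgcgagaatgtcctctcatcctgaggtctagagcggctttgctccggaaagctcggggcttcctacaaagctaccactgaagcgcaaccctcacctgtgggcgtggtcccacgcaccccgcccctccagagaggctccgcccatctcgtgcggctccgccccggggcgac

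Anxa1 and Anxa10, which moved in opposite directions, both held TATAAA at position -32 from the start site. Anxa10 held TGANTCA at positions -180 and -16, and its window had a GC content of 33.6%, against 46.0% for Anxa1, 58.8% for Anxa5 and 58.0% for Anxa11. In the table's windows of 300 bases, which add the first 50 bases of the transcript, the median GC content of all 32851 promoters was 52.7%. Of these windows 13.6% held TATAAA and 7.81% TGANTCA on either strand. In the 9 windows of the 7 members, TATAAA was also found in Anxa2, at position -17. Anxa2 held TGANTCA as well, at position -95. The letters AGATAAG (bound by GATA factors, in 3.04% of all promoters) were in 1 of the windows of Anxa4, at position -43. The letters CTTTGAT (TCF/LEF, in 3.73% of all promoters), the HNF1 motif (GTTAAT, any base and ATTAA, 0.0609%) and the interferon-stimulated response element (GAAA, any 2 bases and GAAA, 3.44%) were not in these windows. No overlap between matches of different motifs was found in the printed sequences, and a match is only a stretch of letters.

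The second comparison asks what differs between sulindac-treated and untreated adenoma organoids. Of the 9 members that could be tested, 1 was called higher after sulindac (Anxa11) and 2 lower (Anxa4 and Anxa6), where 8.32% of the 12962 genes tested were called higher, 9.10% lower and 17.4% in either direction. Anxa6 had the largest change of the family, 4.55-fold lower. The median log2 fold change of the 9 members was -0.08 against -0.01 for all genes tested, and the median size without the sign was 0.67 against 0.31. The adenoma samples are the same ones that enter the first comparison, so opposite directions in the 2 comparisons are not independent of each other.

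Anxa6 had 28.9, 33.6 and 25.3 CPM in the sulindac samples, against 114, 145 and 142 CPM in adenoma. The sulindac samples lay below every adenoma sample and above every MIN sample. The log2 fold change against adenoma was -2.19 ± 0.14 (adjusted p = 7.98e-05), and against MIN it was 1.57 ± 0.13 (adjusted p = 1.49e-05). Anxa4 had 1220.4, 1239 and 989.8 CPM after sulindac, below all adenoma and all MIN samples. Its log2 fold change against adenoma was -0.82 ± 0.13 (adjusted p = 0.00243), and the call was lost without sulindac replicate 1 (log2 fold change -0.87, adjusted p = 0.0105), 2 (-0.86, 0.0102) or 3 (-0.72, 0.0179).

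Anxa11 had 423, 393 and 349.6 CPM after sulindac, and all these samples were above the adenoma samples at 200.2 to 245 CPM. Its log2 fold change was 0.79 ± 0.12 (adjusted p = 0.00169), and it was called in each of the 13 alternatives to the test, with adjusted p up to 0.00897. Anxa3, an annexin first known from neutrophils, had 306, 209 and 333 CPM after sulindac and 143, 70.3 and 148 CPM in adenoma. The groups did not overlap, yet the log2 fold change of 1.24 ± 0.28 missed the threshold (adjusted p = 0.011). Sulindac replicate 2 and adenoma replicate 2 were the lowest of their groups in Anxa1, Anxa2 and Anxa3.

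The other tested members were not called after sulindac. Their log2 fold changes were 0.67 ± 0.22 for Anxa2 (adjusted p = 0.0462), 0.41 ± 0.11 for Anxa7 (0.0252), -0.31 ± 0.09 for Anxa5 (0.0317), -0.24 ± 0.28 for Anxa13 (0.542) and -0.08 ± 0.15 for Anxa1 (0.730). Without adenoma replicate 3, Anxa7 passed the threshold (0.51, adjusted p = 0.00402). Anxa2, Anxa5 and Anxa7 had no overlap between the groups, while Anxa1 and Anxa13 overlapped. In all, 7 of the 9 members had no overlap, 4 higher and 3 lower, against 48.9% of all genes tested. Anxa10 was not tested, with 3, 1 and 8 counts after sulindac and 4, 1 and 0 before it. The ratio of its summed counts, 12 against 5, was 2.62 with a 95% exact interval of 0.859 to 9.49, so a difference was not detectable at this depth.

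**Figure D3:**
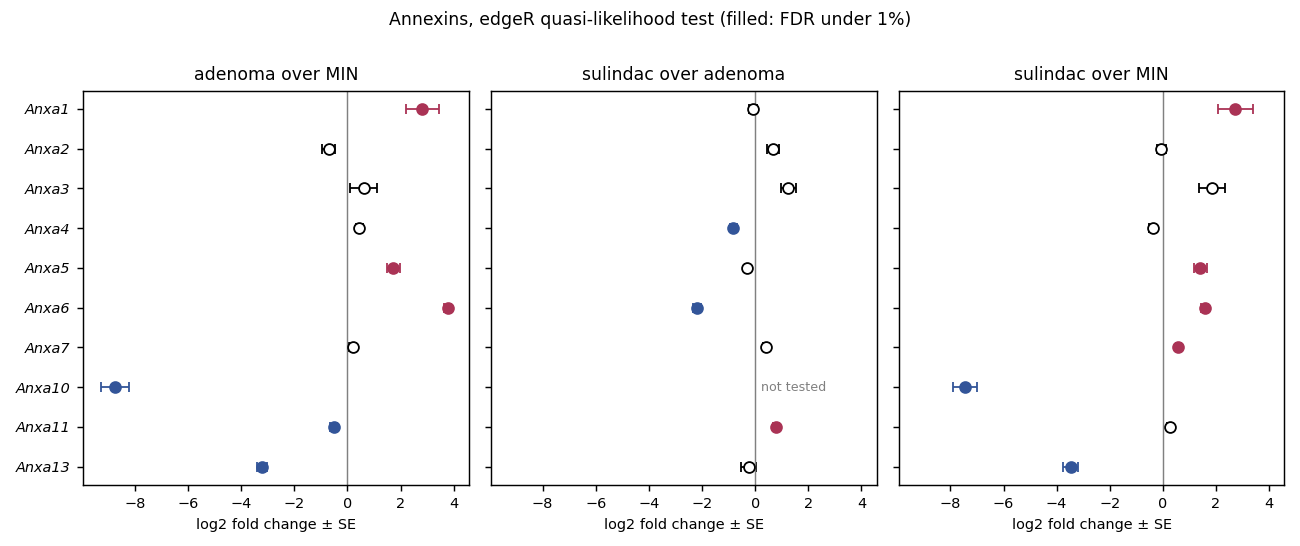
The 3 panels give, on a common scale, the log2 fold change (x-axis) of each annexin in each comparison, with whiskers of 1 SE; filled points passed an FDR of 1% (red higher, blue lower) and open points did not. Anxa6 is at 3.77 over MIN in adenoma and at -2.19 after sulindac, and Anxa10 could not be tested between the adenoma groups.

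The last comparison, of sulindac organoids with MIN, shares its samples with both others and is given beside them. Here 4 members were called higher in the sulindac samples (Anxa1, Anxa5, Anxa6 and Anxa7) and 2 lower (Anxa10 and Anxa13), where 23.0% of the 13551 genes tested were called higher, 26.8% lower and 49.7% in either direction. Anxa13 was at 39.5, 24.9 and 17.6 CPM in the sulindac samples, a log2 difference of -3.46 ± 0.28 from MIN (adjusted p = 1.88e-05), and these samples overlapped with those of adenoma. Anxa10, at 12 summed counts, was 173-fold higher in MIN (95% exact interval 98.7 to 335, adjusted p = 3.43e-06). Sulindac replicate 3 held 8 of these counts, and without it the fitted log2 fold change went from -7.43 to -8.35. Anxa5 stood at 87.2, 85.3 and 80.4 CPM, above all MIN samples and below all adenoma samples, at 1.41 ± 0.23 on the log2 scale against MIN (adjusted p = 8.87e-04).

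Anxa7, a calcium-dependent membrane-fusing annexin also called synexin, had 119, 127 and 144 CPM in MIN, 148, 127 and 171 CPM in adenoma and 195, 192 and 200.2 CPM after sulindac. The sulindac samples lay above all others and differed among themselves by 1.04-fold only. The log2 fold change against MIN was 0.59 ± 0.09 (adjusted p = 4.83e-04). Anxa1 had 244, 194 and 236 CPM after sulindac, and its log2 fold change against MIN was 2.73 ± 0.66 (adjusted p = 0.0084). This call was lost with RLE size factors in place of TMM (2.73, adjusted p = 0.0101), with no filter on low counts (2.74, 0.0572), without MIN replicate 1 (2.35, 0.014) or 2 (2.37, 0.0234) and without sulindac replicate 1 (2.66, 0.0177), 2 (2.84, 0.0307) or 3 (2.70, 0.0318). Without MIN replicate 3 the value was 4.00.

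Not called against MIN were Anxa2 (-0.05 ± 0.17, adjusted p = 0.791), Anxa3 (1.85 ± 0.49, 0.0108), Anxa4 (-0.39 ± 0.12, 0.0187) and Anxa11 (0.26 ± 0.11, 0.0778). The sulindac samples of Anxa3 were above all MIN samples, and without MIN replicate 3 the log2 fold change was 2.73 and past the threshold (adjusted p = 2.22e-05). In this comparison 8 of the 10 members had no overlap, 5 higher and 3 lower, against 69.6% of all genes tested. The median log2 fold change of the members was 0.42 against -0.03 for all genes tested.

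The spread between samples of 1 group differed among the annexins. The coefficient of variation in MIN was 102% for Anxa1, 80.2% for Anxa3 and 39.1% for Anxa5, and it was 8.18% for Anxa6, 8.73% for Anxa4 and 9.86% for Anxa7. MIN replicate 3 was 3.59-fold above the mean of the other MIN samples in Anxa3, 1.88-fold in Anxa5, 1.68-fold in Anxa10 and 1.42-fold in Anxa2. The same sample was 6.05-fold above in Ly6a (Sca-1, a marker of fetal-like and regenerating gut epithelium), 2.79-fold in Plaur and 2.28-fold in Ahnak, and it was lower than their mean in the enterocyte marker Fabp1 (234 against 740.4 CPM) and the stem cell marker Olfm4 (658 against 1501 CPM). Across the 9 samples, the deviations of log2 CPM from the group means had a Pearson r of 0.93 between Anxa1 and Anxa3, 0.97 between Anxa1 and Anxa5 and 0.93 between Anxa2 and Anxa7, while it was -0.27 between Anxa1 and Anxa6. These r describe 9 samples of which MIN replicate 3 is 1, and samples share their library and its depth between genes.

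**Figure D4:**
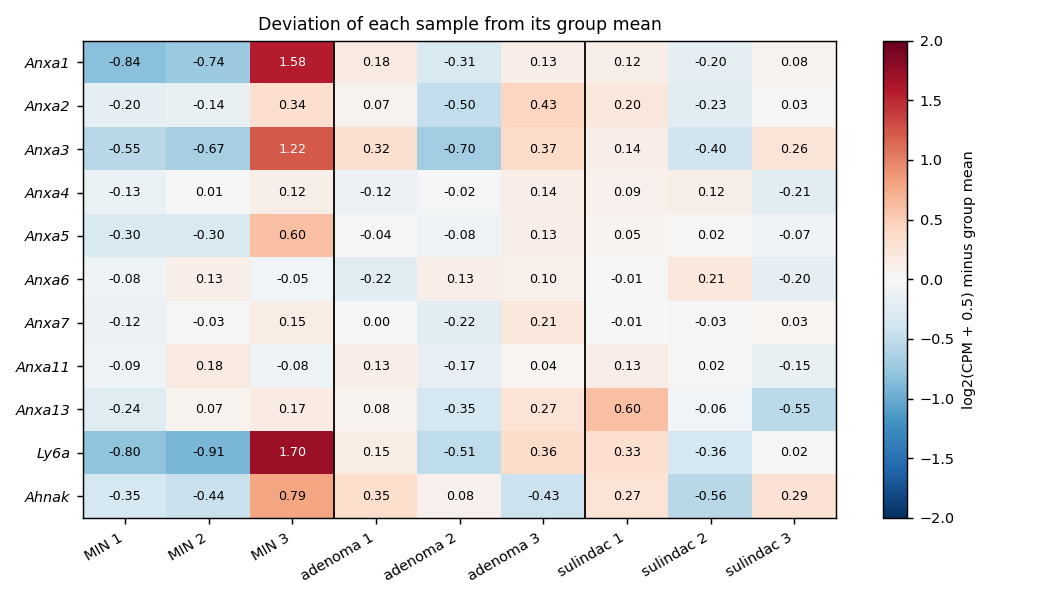
Each cell gives, for 1 gene (rows) in 1 sample (columns), the log2(CPM + 0.5) minus the mean of the sample's group, in red above and blue below the mean; Ly6a and Ahnak are added to 9 annexins, and Anxa10 is left out for its low counts. MIN replicate 3 is at 1.58 for Anxa1, 1.22 for Anxa3 and 1.70 for Ly6a, and adenoma replicate 2 is below its group in Anxa1, Anxa2 and Anxa3.

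Both remaining mouse annexins of the table were low. Anxa8, an annexin of squamous and ductal epithelia, had 23, 16 and 51 counts in MIN, 247, 164 and 248 in adenoma and 259, 138 and 208 after sulindac. In adenoma it was higher and passed the threshold (3.05 ± 0.47 on the log2 scale, adjusted p = 6.75e-04), and it was at 0.03 ± 0.29 between sulindac and adenoma (adjusted p = 0.952). Anxa9, an annexin with an altered calcium-binding core, had 66, 86 and 65 counts in MIN, 209, 185 and 242 in adenoma and 103, 96 and 95 after sulindac. It was called higher in adenoma (1.79 ± 0.21, adjusted p = 1.55e-04) and lower after sulindac (-0.97 ± 0.19, adjusted p = 0.0059), where the call was lost without any 1 of the 6 samples (adjusted p 0.0113 to 0.0314). Anxa9 overlaps Mindy1, a gene on the opposite strand.

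Of the S100 and EF-hand partners of annexins, 6 of 7 could be tested. Over all genes tested, 18.5% were called higher and 20.1% lower in adenoma over MIN, and 23.0% and 26.8% in sulindac over MIN. Between sulindac and adenoma 17.4% were called in either direction. These shares hold for the lists of related genes and markers that follow as well. Between adenoma and MIN, S100a6 (log2 fold change 2.82 ± 0.26, adjusted p = 3.06e-05), which binds Anxa11 and Anxa6, and S100a11 (1.80 ± 0.22, adjusted p = 1.77e-04), the partner of Anxa1, were called higher, and Sri (-0.84 ± 0.21, adjusted p = 0.00863), the sorcin that binds Anxa7, was called lower. S100a6 had 47.5, 46.4 and 79.9 CPM in MIN and 372, 334 and 515 CPM in adenoma, and S100a11 had 131, 140.4 and 216 CPM and 558, 462 and 667 CPM. For both, MIN replicate 3 was the highest MIN sample, as it was for Anxa1. S100a10, the partner of Anxa2, was at 0.26 ± 0.20 (adjusted p = 0.299), Pdcd6 at 0.11 ± 0.15 (0.551) and Ahnak, the giant scaffold that binds Anxa2 with S100a10, at 1.28 ± 0.34 (0.0125). Sri lost its call without MIN replicate 2 or 3 or any 1 adenoma sample, and with library size alone (adjusted p 0.0138 to 0.0313), and Ahnak was past the threshold without MIN replicate 3 (1.79, adjusted p = 5.92e-04). None of the 6 was called between sulindac and adenoma by edgeR, while 3 had an unadjusted p under 0.05 (S100a10, Pdcd6 and Ahnak) and the DESeq2 Wald test called 2 of these (Pdcd6 and Ahnak). Against MIN, 5 of the 6 were called higher in sulindac organoids, where 23.0% of all genes tested were. Their log2 fold changes went from 0.57 for Pdcd6 and 0.75 for S100a10 to 2.47 for Ahnak and 2.93 for S100a6. The Ahnak call was lost with no filter on low counts (2.47, adjusted p = 0.0106). S100a4 had too few counts for a test (1 to 19).

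The receptors of Anxa1 were at the limit of detection. Fpr1 and Fpr3 had 0 counts in all 9 samples and Fpr2 had 1 count in 1 sample, which allows levels of up to 0.0641 to 0.100 CPM for a gene at 0. Pla2g4a, the cytosolic phospholipase A2 that Anxa1 is known to inhibit, had 36.4, 39.6 and 21.6 CPM in MIN, 8.20, 3.33 and 3.85 CPM in adenoma and 62.7, 50.7 and 53.9 CPM after sulindac. The 3 groups did not overlap. It was called lower in adenoma (log2 fold change -2.66 ± 0.37, adjusted p = 3.61e-04) and higher after sulindac (3.45 ± 0.32, adjusted p = 2.55e-04), a step in which Anxa1 itself was at -0.08.

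Of 5 genes of plasminogen assembly, for which Anxa2 with S100a10 serves as a docking site, 4 could be tested, and Plg itself had 0 to 4 counts. Plau, the urokinase, had 0.150 to 0.219 CPM in the MIN and 1.71 to 2.56 CPM in the adenoma samples, and its log2 fold change of 3.55 ± 0.34 passed the threshold (adjusted p = 3.86e-05). It was also called higher in sulindac organoids than in MIN (2.44), as the 1 gene of this list. Plaur, the urokinase receptor, stood at 12.3 to 17.4 CPM before and at 49.7 to 62.5 CPM after sulindac, and rose there (1.86 ± 0.16, adjusted p = 1.77e-04). Plat, the tissue plasminogen activator, rose too (0.96 ± 0.19, adjusted p = 0.00552), but lost its call without adenoma replicate 1 or 2 or any 1 sulindac sample (adjusted p 0.0155 to 0.0277) and in one fit of all 9 samples (0.0398). Plau went the other way after sulindac, at 0.815 to 1.23 CPM and without overlap with adenoma, but was not called (-1.10 ± 0.29, adjusted p = 0.019). The DESeq2 Wald test called it lower (adjusted p = 0.0092). Plgrkt, a plasminogen receptor, was at -0.39 ± 0.23 in adenoma over MIN (adjusted p = 0.196) and 0.18 ± 0.16 after sulindac (0.425).

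Among 6 genes of membrane repair, Myof, a ferlin of the plasma membrane, had 18.1, 7.12 and 11.2 CPM in MIN, 329, 221 and 208 CPM in adenoma and 479, 288 and 404 CPM after sulindac. It was called higher in adenoma by a log2 fold change of 4.38 ± 0.35 (adjusted p = 1.48e-05), and so was Capn2, a calpain (1.67 ± 0.27, adjusted p = 8.48e-04). Trim72, a repair protein best known from muscle, was called lower (-3.27 ± 0.55, adjusted p = 0.00108), at 35 to 44 counts in the MIN and 1 to 7 in the adenoma samples. Capns1, the small calpain subunit, was at 0.63 ± 0.16 (adjusted p = 0.0109) and past the threshold in the blocked fit (adjusted p = 0.0021) or without MIN replicate 3 (0.77, adjusted p = 0.00483). Capn1 was at -0.10 ± 0.11 (adjusted p = 0.488) and Dysf had 0 to 3 counts. None of the 4 genes tested after sulindac was called by edgeR, 1 (Myof) had an unadjusted p under 0.05, and DESeq2 called 0. Against MIN, Myof (5.01) and Capn2 (1.53) were called higher in sulindac organoids and Trim72 (-3.03) lower.

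Of 5 genes that place phosphatidylserine, the lipid that annexins bind, on one or the other side of the plasma membrane, Ano6, a calcium-driven scramblase, was called lower in adenoma (-1.70 ± 0.14, adjusted p = 2.05e-05), and the flippase Atp11a (2.08 ± 0.24, adjusted p = 1.30e-04) and its partner subunit Tmem30a (0.44 ± 0.11, adjusted p = 0.00738) were called higher. In the blocked fit Tmem30a lost its call (adjusted p = 0.0106), as it did without MIN replicate 1 or 2 or adenoma replicate 1 or 2 (adjusted p 0.0139 to 0.0453). Ano6 had 229.8, 242 and 254 CPM in MIN and 83.8, 80.5 and 59.3 CPM in adenoma, without overlap. Plscr1 (-0.02 ± 0.12, adjusted p = 0.920) and Xkr8 (0.56 ± 0.19, 0.0375) were not called. After sulindac none of the 5 was called by edgeR, 4 had an unadjusted p under 0.05 (all but Xkr8), and DESeq2 called 1 (Tmem30a). Against MIN, Atp11a (2.59), Xkr8 (0.79) and Tmem30a (0.74) were called higher in sulindac organoids and Ano6 (-1.30) lower. The Xkr8 call was lost without MIN replicate 1 or 2 or sulindac replicate 2 (adjusted p 0.0103 to 0.0118).

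**Figure D5:**
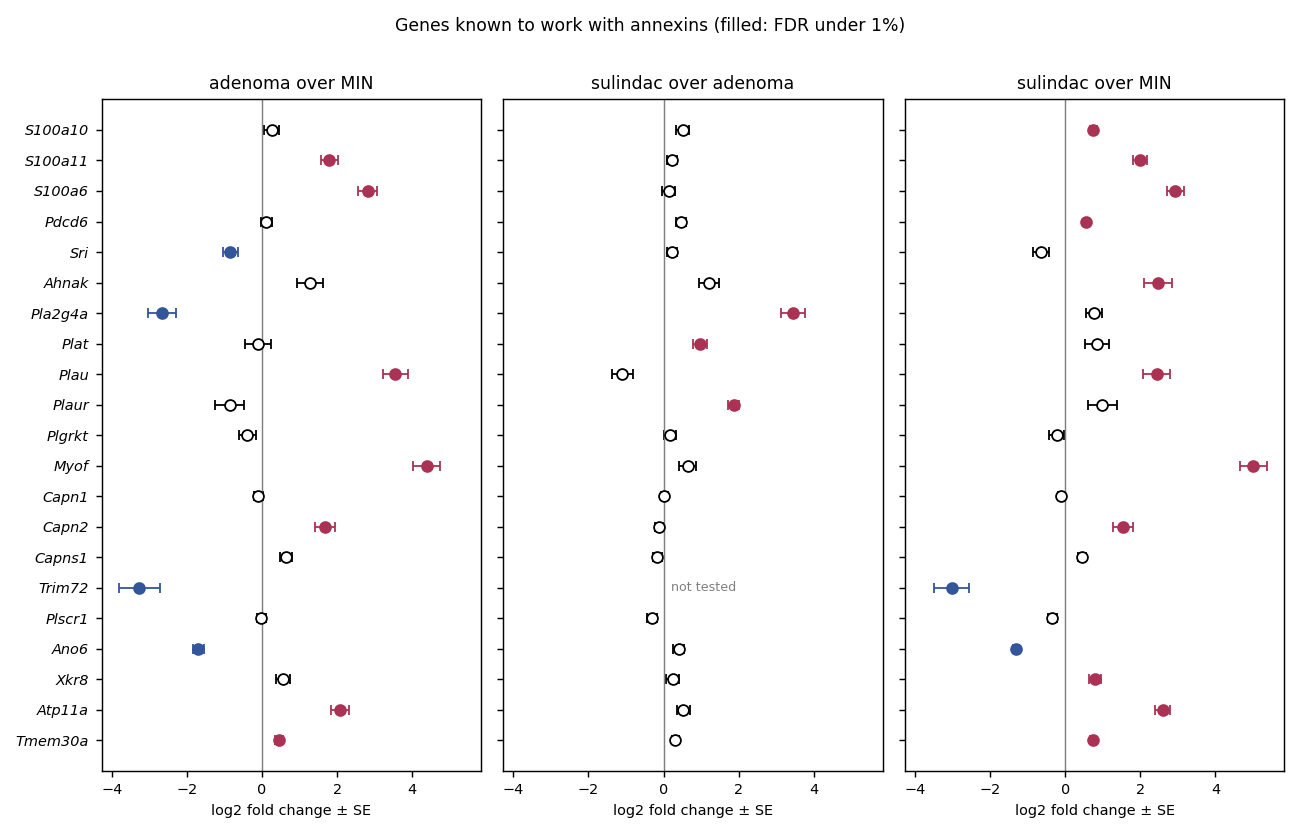
The 3 panels give, on a common scale, the log2 fold change (x-axis) with whiskers of 1 SE for the annexin-related genes that could be tested, and filled points passed an FDR of 1% (red higher, blue lower). Myof is at 4.38 and Trim72 at -3.27 in adenoma over MIN, and Pla2g4a is at -2.66 there and at 3.45 after sulindac.

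Cell type markers moved with the groups as well. Of 6 epithelial markers, 4 were called lower in adenoma than in MIN (Cdh1, Krt8, Krt19 and Vil1) and 0 higher. After sulindac 2 were called higher (Krt8 and Vil1) and 0 lower, where 8.32% of all genes tested were called higher. Against MIN, 4 were called lower in sulindac organoids (Epcam, Cdh1, Krt19 and Vil1) and 1 higher (Krt18). All 6 goblet cell markers and 5 of 6 Paneth cell markers were called lower in adenoma than in MIN. Of all genes tested 20.1% were called lower there and 18.5% higher. The other Paneth cell marker, Mmp7, was called higher (1.91 ± 0.14, adjusted p = 9.54e-06), and at 604 to 833 CPM it made up most of the Paneth sum in adenoma. For the goblet and Paneth lists the summed levels were 2398 to 2736 CPM and 12271 to 14587 CPM in the MIN samples, and 132 to 241 CPM and 685 to 951 CPM in the adenoma samples. In the sulindac samples they were 60.1 to 123 CPM and 158 to 226 CPM. Between sulindac and adenoma 1 of 6 goblet and 4 of 6 Paneth cell markers were called lower and 0 higher, where 9.10% of all genes tested were called lower. Mmp7 was among these (-2.16, adjusted p = 1.48e-04). Of 5 fetal-like markers tested 4 were called higher in adenoma (summed level 51.5 to 126 CPM in the MIN, 626 to 785 CPM in the adenoma and 550.1 to 800.1 CPM in the sulindac samples), with Ly6a not called (at 2.202 on the log2 scale, adjusted p = 0.0229) and Spp1 at 0 to 3 counts. Of 5 stem cell markers 2 were called higher (Ascl2 and Axin2) and 2 lower (Lgr5 and Olfm4). The leukocyte list summed to 1.75 to 2.70 CPM in the MIN, 8.16 to 16.5 CPM in the adenoma and 3.12 to 4.13 CPM in the sulindac samples, most of it Cd68 (53 to 83, 284 to 560 and 93 to 117 counts), and the mesenchymal and endothelial lists reached at most 4.22 and 0.572 CPM. The part of any of these cell types in the annexin results was not tested.

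Genes most like a member in log2(CPM + 0.5) across the 9 samples were sought among the 12622 genes tested in all 3 comparisons. Genes too low for a test between sulindac and adenoma, as Anxa10 itself was, were therefore not candidates. The most similar genes are named for the called members with the largest and the second largest log2 fold change, without its sign, in each of the first 2 comparisons. These members were Anxa10 and Anxa6 between adenoma and MIN and Anxa6 and Anxa4 after sulindac. For Anxa6 the most similar genes were Susd1 (Pearson r = 0.998), Sh3bp1 (0.997) and Paqr6 (0.995), and for Anxa10 they were Nr1h4, the bile acid receptor FXR (0.999), Xist (0.998) and Slc7a2 (0.998). For Anxa4 they were Mterf1a (0.987), Isoc2b (0.985) and Mrrf (0.985). Values this high are set mainly by the differences between 3 groups and are a description only. Nr1h4 was at 31.6 CPM on average in MIN, 0.697 in adenoma and 0.836 in sulindac organoids, and Susd1 at 15.7, 47.99 and 24.9 CPM.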

How the data were processed

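The authors deposited 1 table of raw counts per gene symbol for 9 mouse organoid samples, with no normalization. Per the labels, the processing notes name RSEM, Bowtie2 2.2.4 and the build mm9, and the strand setting is not given in the sources used here. MIN replicate 1 is deposited as 2 runs and their sum, which is equal in all 23955 rows. The sum was used as 1 sample. Each comparison fitted only its own groups with edgeR 4.0.16 in R 4.3.3 (filterByExpr, TMM, glmQLFit with robust estimation, glmQLFTest), with Benjamini-Hochberg adjustment over all genes tested at an FDR of 1%. The SE was taken as the size of the log2 fold change over the root of its F statistic. The members, gene lists and tests were chosen with earlier results of these data known. All members are named, with the genes of the lists of annexin partners (1 listed gene is not reported here), and, for the 2 called members that changed most in adenoma over MIN and in sulindac over adenoma, the 3 genes with the most similar pattern.

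Around their group means, MIN and adenoma samples of the same number had r of 0.126, 0.113 and 0.192 across 13892 genes. Samples of different number had r from -0.149 to 0.0685. With 3 samples per group, such values cannot settle whether the samples are paired. The main fit therefore has no block, and the fit blocked on the number is given as an alternative. The numbers come from the sample titles. In simulated counts for adenoma over MIN, the script recovered 92 of 98 genes changed by 2 and 58 of 97 changed by 1 on the log2 scale, with 5 false calls, among 13587 genes. Transcript lengths and shared 50-base stretches came from GENCODE M21 (GRCm38). Lengths are those of the longest transcript of each symbol. Shared stretches were sought in the longest protein-coding transcript, or in the longest transcript where none is protein-coding. Anxa13 has no protein-coding transcript in GENCODE M21. Annotated overlaps on the opposite strand (Gm16144 with Anxa2, Gm44036 with Anxa4, Anxa11os with Anxa11) and on the same strand (Gm42603 with Anxa3) could not be separated from the members. Protein sequences were not used here.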

Additional observations from a re-analysis of the deposited data

How the results depend on the processing

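Of 375 values of single members under the alternatives, 329 kept their direction and their side of the threshold, 24 lost a call, 18 gained one and 4 changed sign. The 4 were small values with no call. Anxa1 in sulindac over adenoma went from -0.08 to 0.017 without adenoma replicate 1 and to 0.031 without sulindac replicate 2 (range with single samples left out -0.21 to 0.031). Anxa2 in sulindac over MIN went from -0.05 to 0.13 without MIN replicate 3 and to 0.07 without sulindac replicate 2 (range -0.17 to 0.13). The calls of Anxa5, Anxa6, Anxa7 (sulindac over MIN), Anxa10, Anxa13 and Anxa11 (sulindac over adenoma) were kept under each alternative that tested them. A minimum of 10 counts in each sample leaves Anxa10 untested, which left 1 member lower in sulindac over MIN in place of 2. In sulindac over adenoma the number of members called higher was 1, and it was 2 with RLE size factors, 4 with the DESeq2 Wald test and 4 at an FDR of 5%. With single samples left out the members called ranged from 1 to 2 higher and from 1 to 2 lower. There the counts of all genes were 603 higher and 1983 lower with library size alone, against 1078 and 1179, which shifted the median over all genes to -0.18 on the log2 scale and the share of higher calls from 47.8% to 23.3%. In adenoma over MIN library size alone shifted that median to 0.12. The counts in sulindac over adenoma were 1778 higher with DESeq2, 2034 higher and 2374 lower at an FDR of 5%, and 423 to 1403 higher and 386 to 1488 lower with single samples left out. The cause was not tested.

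With the replicate number as a block, 2 members were called higher in sulindac over adenoma in place of 1, since Anxa3 was added (log2 fold change 1.28, adjusted p = 7.62e-04), and in sulindac over MIN Anxa3 was added as well (2.09, adjusted p = 0.00279). In these comparisons the r of same-numbered samples was 0.253, 0.208 and -0.074, and -0.0303, 0.396 and 0.252. These values cannot settle whether the samples are paired either. Besides the members and partners named with adenoma over MIN, the block changed no call of a member there. Of 31 calls of annexin-related genes and of Anxa8 and Anxa9, 25 held under every alternative that tested them, 12 or 13 for each call. The calls of cell type markers were not examined under the alternatives. With the longest protein-coding transcript, an alternative chosen after seeing the data, the lengths of Anxa2, Anxa4 and Anxa11 changed and the order of the members per kilobase did not. Anxa13 kept its length, since no such transcript is annotated for it. With the protein-coding transcript the mean of Anxa2 was 486 CPM per kilobase in MIN, against 308 with the longest. In adenoma it was 298 against 189. The overlaps between neighbours and the shares of the sum were computed with the longest transcript alone, so they depend on that choice. Among the members depth limits Anxa10 in the adenoma groups, and among the related genes Fpr1, Fpr2, Fpr3, S100a4, Plg and Dysf, and Trim72 in sulindac over adenoma.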
